A study of Mus musculus with 360 samples.

Results

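The genes of the type I, III and V collagens, Col1a1, Col1a2, Col3a1, Col5a1, Col5a2 and Col5a3, were followed in single skeletal stem/progenitor cells of mouse cranial sutures and of the growth plate. They were chosen by name, as the chains of the 3 collagen types that build the fibrils of bone and fibrous tissue, and all 6 were among the 24015 genes of the deposited tables. The cells came from wild-type CD-1 mice at postnatal day 3, and were taken from 3 seams between skull bones, the sagittal suture (SAG), the coronal suture (COR) and the posterior frontal suture (PF), and from the growth plate (GP) of the tibia, the cartilage from which a long bone lengthens. No agent or allele set the groups apart. The study asked what sets the cells of PF, which closes early in life, apart from those of COR and SAG, which stay patent, with GP as a reference. Cells had been sorted singly into plates as CD51+ and CD200+ and negative for blood, endothelial and further lineage proteins. Since this sort selects on surface proteins, the cells stand for the CD51+ CD200+ fraction of a tissue and not for all of its cells.

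A fibril-forming collagen is a rope of chains wound around each other, with glycine recurring at regular steps along each chain. Type I collagen, the main protein of bone matrix, is built from the chains of Col1a1 and Col1a2. Type III collagen is built from the chain of Col3a1 alone and is found with type I in skin, vessels and other pliable tissues, and early in repair. Type V collagen is a minor part of the same fibrils, where it starts fibril assembly and limits fibril width. Its common form joins the chains of Col5a1 and Col5a2, and a rarer form also carries the chain of Col5a3. In growing bone, osteoblasts are known for making type I collagen, while cartilage is built on type II collagen.

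The genes are alike in structure. Per the GENCODE annotation of mm9, the genome build of the study, Col3a1 lies on chromosome 1 (chr1:45368383-45406551, plus strand) and Col5a2 beside it (chr1:45431166-45560127, minus strand), with 24614 bases between their 3' ends. Col5a1 is on chromosome 2 (chr2:27741945-27895034, plus strand), Col1a2 on chromosome 6 (chr6:4454814-4491543, plus strand), Col5a3 on chromosome 9 (chr9:20574494-20619511, minus strand) and Col1a1 on chromosome 11 (chr11:94797538-94814356, plus strand). Their longest transcripts have 51 to 67 exons, of which 21 in Col1a1, 24 in each of Col1a2, Col3a1 and Col5a2, 29 in Col5a1 and 31 in Col5a3 hold exactly 54 coding bases, or 6 repeats of the glycine triplet. The first such exon that begins with a glycine codon is shown for 4 of the genes, to make visible both the shared repeat and the letters that keep their reads apart. Glycine codons are in capitals, and the sequences are exonic, of build mm9, 5′ to 3′ on the gene's strand.
Col1a2 (chr6:4465481-4465534, plus strand): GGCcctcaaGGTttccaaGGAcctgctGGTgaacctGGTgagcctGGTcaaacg
Col3a1 (chr1:45382205-45382258, plus strand): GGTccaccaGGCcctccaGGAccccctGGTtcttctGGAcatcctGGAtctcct
Col5a1 (chr2:27821117-27821170, plus strand): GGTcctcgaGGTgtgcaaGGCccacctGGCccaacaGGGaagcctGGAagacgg
Col5a3 (chr9:20605512-20605565, minus strand): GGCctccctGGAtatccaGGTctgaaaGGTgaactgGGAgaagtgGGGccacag
Each has 6 glycine codons in the same places and other letters between them. Over whole transcripts, Col5a1 and Col5a3 shared 2 runs of 31 bases, and the other 14 pairs of genes shared 0, so that few reads could match the transcripts of 2 members. Exons of Col1a1 overlapped 109 bases of an annotated gene on the opposite strand, and those of Col5a1 99 and 113 bases of 2 such genes. The use of strand in the counting is not given in the sources used here.

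RefSeq promoters of build GRCm38.p6, 250 bases before to 50 after the start, were at hand for 4 of the 6 members, Col1a2, Col3a1, Col5a1 and Col5a3. Those of Col1a2 and Col3a1 are shown, as a type I and a type III gene that were ordered differently over the tissues. Capitals mark the TATA box TATAAA, the CCAAT box, the GC box GGGCGG and the Runx site TGTGGT on either strand, and a match on the other strand appears as its reverse complement.
Col1a2 (chr6:4505368-4505667, plus strand): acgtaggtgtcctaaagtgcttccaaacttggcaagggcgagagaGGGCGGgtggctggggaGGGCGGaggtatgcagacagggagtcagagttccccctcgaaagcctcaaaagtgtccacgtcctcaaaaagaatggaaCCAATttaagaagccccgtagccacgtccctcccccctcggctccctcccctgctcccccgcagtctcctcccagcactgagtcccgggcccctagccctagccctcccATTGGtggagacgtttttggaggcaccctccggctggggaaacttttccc
Col3a1 (chr1:45311288-45311587, plus strand): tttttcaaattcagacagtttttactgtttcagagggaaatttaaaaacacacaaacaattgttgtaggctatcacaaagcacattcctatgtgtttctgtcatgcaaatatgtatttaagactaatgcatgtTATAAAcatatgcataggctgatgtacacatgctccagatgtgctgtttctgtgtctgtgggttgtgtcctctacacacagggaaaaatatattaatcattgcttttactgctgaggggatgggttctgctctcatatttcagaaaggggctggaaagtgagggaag
The Col1a2 window was 61% G or C and held 2 GC boxes and 2 CCAAT boxes, and the Col3a1 window was 37.7% G or C and held 1 TATA box. Over all 32851 promoters of the table, 13.6% held a TATA box, 37.4% a CCAAT box, 35.7% a GC box and 16.8% a Runx site, and the median was 52.7% G or C. These matches describe the letters and say nothing of the factors that bind there.

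Of 360 deposited cells, 325 passed the filter of at least 500 genes with a read and 10000 reads of any gene, 87 from PF, 86 from SAG, 74 from COR and 78 from GP. Each tissue filled 2 plates, no animal was named for any cell, and so each tissue is 1 sample whose 2 plates give the only spread, with no test and no p-value. Summed reads other than those of the ribosomal RNA gene Rn45s came to 17212041 in SAG and to between 28471545 and 32037308 in the other tissues, with a median per cell of 184673 in SAG and of 312083 to 448803 elsewhere. SAG plate 2 stood apart, with 86.8% of its reads on Rn45s against 20.2% to 30.96% on the other 7 plates, and a median of 875 genes with a read per cell against 2111.5 to 3867. For this reason Rn45s was left out of all totals, and the main results on SAG are given by plate. Itgav, the gene of CD51, had a read in 18.6% to 60.8% of the cells of a tissue and Cd200 in 33.7% to 55.4%, while Ptprc and Tek, defining genes of blood and endothelial cells, had one in at most 3.45% and in 0% of cells. Of the other genes of the negative gates, Thy1 had a read in at most 1.35% of cells, Eng (CD105) in at most 5.41% and Enpep (6C3) in at most 6.98%, with 20.4 CPM of Eng and 34.7 of Enpep in SAG. Markers of haematopoietic and endothelial cells summed to at most 18.65 and 17.3 CPM in any tissue.

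The type I chains led the transcriptome of these cells, and they were lowest in SAG. Levels are given in CPM, reads of a gene per 1000000 reads other than Rn45s, summed over the passing cells of a tissue or plate. Col1a1, the larger share of type I collagen, stood at 82641 CPM in PF, 63338 in COR and 66141 in GP, against 19548 in SAG, and ranked first of all genes in PF, COR and GP and second in SAG. By plate it was at 112520 and 75393 CPM in PF, 72989 and 62253 in COR and 49155 and 69707 in GP, against 29167 and 13152 in SAG, with plate 1 named first here and below. In these sums, both SAG plates lay below every other plate, both PF plates lay above every other plate, and the plates of COR and GP overlapped. The place of PF depends on the sum, since 1 cell gave 31% of the Col1a1 reads of PF plate 1. By the mean of single-cell CPM, PF plate 2, at 59154, lay below both COR plates, at 68646 and 59719.

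Col1a2 was likewise highest in PF and lowest in SAG. It stood at 56199 CPM in PF, 42923 in COR and 42012 in GP, against 17004 in SAG, with 66256 and 53760 on the PF plates, 21843 and 13787 on the SAG plates, 48269 and 42322 on the COR plates and 41026 and 42220 on the GP plates. The SAG plates were again lowest and the PF plates highest, while the lower COR plate lay just above the higher GP plate. Exact Poisson intervals at 95% were narrow at these depths (for Col1a1 in SAG, 19482 to 19614 CPM), and cover counting error only, since reads were counted after PCR without molecular identifiers.

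Col3a1 was ordered differently, with GP and COR above PF. Its level was 10334 CPM in PF, 17117 in COR and 20596 in GP, against 1744 in SAG. Its plates read 11061 and 10158 CPM in PF, 13625 and 17510 in COR and 22810 and 20131 in GP, against 3247 and 744.5 in SAG, so that no 2 tissues overlapped in these sums. By the mean of single-cell CPM, COR plate 1, at 12760, lay below PF plate 1, at 13263. COR plate 2, at 18081, then lay between the GP plates, at 18187 and 16866. By rank among all genes it stood at 47 in SAG and at 5 in each of the other tissues. In SAG, 1 cell gave 35.9% of the Col3a1 reads of the tissue, and on SAG plate 1 the top cell gave 48.3%. On COR plate 1, with 16 cells, the top cell gave 29.5%.

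The type V chains were less abundant and did not move together. Col5a2 was at 2365 CPM in PF, 2269 in COR and 2285 in GP, against 682 in SAG, with SAG plates at 1040 and 444 below all others (2118 to 3081). Col5a1, its partner in the common form of type V, was at 517.1 CPM in both PF and SAG, 817.02 in COR and 753 in GP, and the SAG plates, at 553 and 493, lay beside the PF plates, at 495 and 523. Col5a1 was therefore the member that was not lower in SAG than in PF, while COR (975 and 799) and GP (980.5 and 705) lay above both. Per kb of transcript, a scale on which different genes can be compared, the levels in PF were 13936 for Col1a1, 10510 for Col1a2, 1857 for Col3a1, 357 for Col5a2, 61.5 for Col5a1 and 4.54 for Col5a3. The same order held in the SAG sum, at 3296, 3180, 313, 103, 61.5 and 0. On SAG plate 2 alone, Col1a2 stood above Col1a1 per kb, at 2578 against 2218.

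Col5a3 was rare. It reached 27.8 CPM in PF, 15.4 in COR and 27.8 in GP and had 0 reads in SAG, with 0.507 and 34.4 CPM on the PF plates, 19.8 and 14.9 on the COR plates and 64.6 and 20.1 on the GP plates. The level in PF came from few cells, since the 2 cells with most reads gave 84.8% of them. Set against the limit that 0 reads allow in SAG, 3 reads over the tissue or 0.174 CPM, the levels were 159-fold higher in PF and GP and 88.3-fold higher in COR. That limit covers the counting of reads only, and the levels rest on 5, 13 and 8 cells. By cells, 0 of 86 in SAG allows a share of up to 3.49%, against 5.75% in PF. These folds are therefore no lower bound on a difference between tissues.

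**Figure D1:**
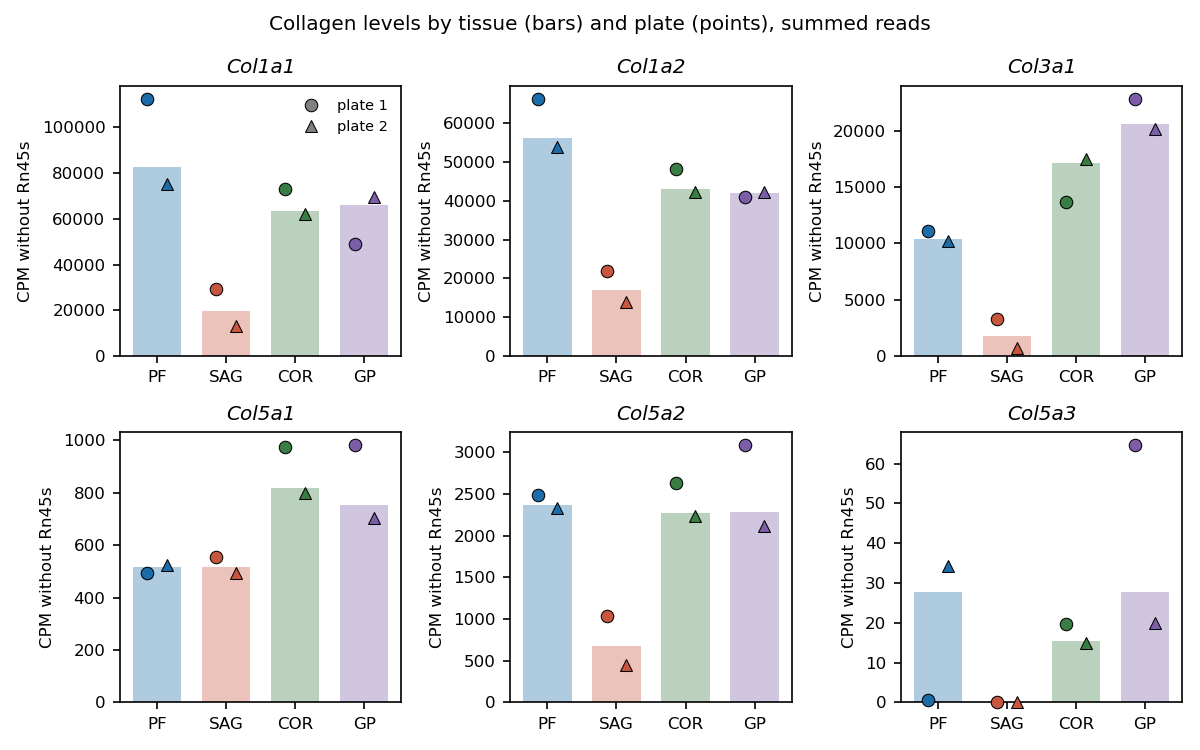
Levels of the 6 collagen genes by tissue. Each panel is a gene, the y axis is its CPM without Rn45s on a linear scale from 0, bars are sums over all passing cells of a tissue, and circles and triangles are its plates 1 and 2. The SAG plates are lowest for Col1a1, Col1a2, Col3a1 and Col5a2, and lie beside the PF plates for Col5a1.

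All 6 genes together took 15.2% of the reads other than Rn45s in PF, 12.6% in COR and 13.2% in GP, against 3.95% in SAG (5.59% and 2.86% on its plates). Per cell the share had a median of 11.6% in PF, 10.97% in COR and 10.4% in GP, against 0.899% in SAG (1.45% and 0.785% on its plates), and its highest value was 54.9%, in a COR cell. The lower quartile set GP apart from the other 2 tissues with high medians, at 1.53% against 7.78% in PF and 7.16% in COR.

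Levels were then compared between tissues as log2((CPM + 1)/(CPM + 1)), and a difference was called where it was at least 2-fold and all 4 ratios between single plates had 1 sign. Between PF and SAG, the ratio was 2.08 for Col1a1 (plates 1.37 to 3.10), 1.72 for Col1a2 (1.30 to 2.26), 2.57 for Col3a1 (1.65 to 3.89) and 1.79 for Col5a2 (1.17 to 2.48), all called higher in PF. Col5a3 was also called, with plates from 0.59 to 5.14, but was among the genes tested only through its level outside SAG. Thus 5 of the 6 genes were called higher in PF and 0 lower, against 16.9% and 13.2% of the 9869 genes tested, which were those with at least 10 CPM in either tissue. Scaling by edgeR's TMM factors shifted the ratios of PF to SAG by -0.25 and turned the split over all genes to 12.7% higher and 16.6% lower, with 5 of the 6 genes called higher. Col5a1 had a ratio of -0.00 with plates from -0.16 to 0.08.

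The comparisons of SAG with COR and GP share the SAG libraries with this one, and the same 5 genes were called. Among them Col5a3, at 0 reads in SAG, was tested only through its level in COR (15.4 CPM, 8 cells) or GP (27.8 CPM, 13 cells), and its fitted ratio depends on the pseudocount. Between SAG and COR the ratio was -1.70 for Col1a1, -1.34 for Col1a2, -3.29 for Col3a1, -1.73 for Col5a2 and -0.66 for Col5a1, whose plates ran from -0.98 to -0.53. Here 5 of 6 genes were called lower in SAG and 0 higher, against 18.9% and 13.5% of 9800 genes (14% and 17% with TMM factors, which shifted the ratios by 0.22). Between SAG and GP the ratio was -1.76 for Col1a1, -1.30 for Col1a2, -3.56 for Col3a1, -1.74 for Col5a2 and -0.54 for Col5a1, and 5 of 6 were called lower and 0 higher, against 18.3% and 13.3% of 9845 genes (15.4% and 15.5% with TMM factors, which shifted the ratios by 0.16). Col3a1 thus had the largest ratio in each comparison with SAG among the 5 genes that had reads there, being 5.92-fold lower than in PF, 9.81-fold lower than in COR and 11.8-fold lower than in GP.

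The median ratio of the 6 genes between PF and SAG was 1.94, with -1.75 for SAG to GP and -1.71 for SAG to COR, and that of all genes tested was 0.29, -0.23 and -0.29. With SAG plate 2 left out, the ratio of the summed type I chains between PF and SAG was 1.44, with -1.08 for SAG to GP and -1.06 for SAG to COR, and that of Col3a1 was 1.67, -2.66 and -2.40. Col1a2 then fell below 2-fold, at -0.94 for SAG to GP and -0.97 for SAG to COR. In these 2 comparisons 4 of 6 genes were called lower in SAG, against 16.4% (GP) and 15.5% (COR) of all genes tested. In PF, 5 of 6 were called higher than in SAG, against 16.1%. Each count includes Col5a3, which had 0 reads in SAG. These ratios rest on SAG plate 1, where 1 cell gave 38.7% of the Col1a1 reads and 1 cell 48.3% of the Col3a1 reads.

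Among PF, COR and GP, 0 of the 6 genes were called in either direction. Over all genes, 5.43% of 9514 were called higher and 6.36% lower in PF than in COR, 7.67% of 9584 were called higher and 8.73% lower in PF than in GP, and 6.33% of 9431 were called higher and 7.09% lower in COR than in GP. Col3a1 came nearest, 1.99-fold lower in PF than in GP at a ratio of -0.99 (plates -1.17 to -0.86), and 1.66-fold lower in PF than in COR at -0.73 (-0.79 to -0.30). The type I sum went the other way, at 0.39 for PF to COR (0.09 to 0.77) and 0.36 for PF to GP (0.21 to 0.99), while Col5a1 was at -0.66 and -0.54. Col5a2 differed by at most 0.06 among these tissues, with plates on both sides of 0. In summed reads, PF held more of the type I chains and less of Col3a1 and Col5a1 than COR and GP on every plate. The differences were less than 2-fold between the tissue sums, while single plates reached 1.19 for Col1a1 and -1.17 for Col3a1 in the ratio of PF to GP. By the mean of single-cell CPM, plates of PF and COR overlapped. Type I was then at 107081 on PF plate 2 and 116527 on COR plate 1, and Col3a1 at 13263 on PF plate 1 and 12760 on COR plate 1.

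Most cells had reads of most members, and SAG had the fewest. Col1a2 had a read in 100% of PF cells (exact Clopper-Pearson 95% interval 95.8 to 100), 95.3% of SAG cells (88.5 to 98.7), 94.9% of GP cells (87.4 to 98.6) and 100% of COR cells (95.1 to 100). Col1a1 had a read in 96.6%, 72.1% (61.4 to 81.2), 94.9% and 100%, and Col3a1 in 89.7%, 63.95% (52.9 to 74.03), 87.2% and 95.9%. Among the type I chains, then, Col1a2 was nearly as widely read in SAG as elsewhere and Col1a1 was not.

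For type V, Col5a2 had a read in 90.8% of PF cells, 50% of SAG cells (39.02 to 60.98), 98.7% of GP cells and 98.6% of COR cells, and Col5a1 in 82.8%, 60.5% (49.3 to 70.8), 80.8% and 91.9%. SAG was the tissue in which Col5a1 was read in more cells than Col5a2. This came from SAG plate 2 (50% and 33.9%), while both were at 80% on plate 1. Col5a3 had a read in 5 of 87 PF cells (5.75%), 8 of 74 COR cells (10.8%) and 13 of 78 GP cells (16.7%), and in 0 of 86 SAG cells, which allows a share of up to 3.49%. All 26 of these cells also had reads of Col5a2 and 23 had reads of Col5a1.

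The SAG plates differed in these shares. On SAG plates 1 and 2, Col1a1 had a read in 83.3% and 66.1% of cells, Col1a2 in 96.7% and 94.6%, Col3a1 in 90% and 50%, Col5a1 in 80% and 50% and Col5a2 in 80% and 33.9%. Expected shares were also taken after thinning to 100000 reads other than Rn45s, in the 80 of 86 cells that deep. These shares were 81.1% and 65.4% for Col1a1, 87.98% and 48.7% for Col3a1 and 80% and 32.6% for Col5a2. Thinning could change little here, since median depths in these reads were already alike, at 188426 and 184232. The plates differed in how many genes a cell showed, with medians of 2891.5 and 875. Whether that difference accounts for the shares was not tested. All of the first 5 members were read in 74.7% of PF cells, 89.2% of COR cells and 73.1% of GP cells, and in 63.3% and 17.9% of the cells of SAG plates 1 and 2.

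**Figure D2:**
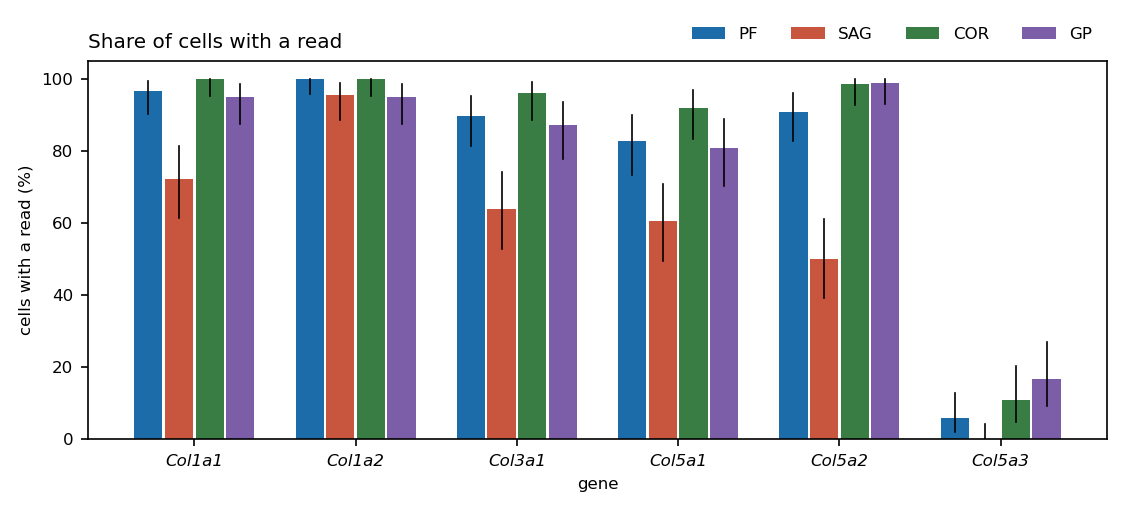
Share of cells with at least 1 read of each gene. The y axis is the percent of the passing cells of a tissue, bars are tissues (PF, n = 87; SAG, n = 86; COR, n = 74; GP, n = 78) and lines are exact 95% binomial intervals. SAG is lowest for each of the 6 genes except Col1a2, where GP is at 94.9% and SAG at 95.3%.

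The chains of type I were then compared within single cells. The log2 ratio of Col1a2 to Col1a1 reads, with 1 read added to each and taken in cells with at least 10 reads of both together, had a median of -0.28 in PF (85 cells), -0.43 in COR (74) and -0.28 in GP (73), with interquartile ranges of 0.80, 0.47 and 1.00. In SAG the median was 0.96 over 82 cells with an interquartile range of 6.30, and both SAG plates were high, at 1.20 and 0.77, against -0.53 to 0.13 on the other 6. SAG thus held cells in which 1 chain of type I was read and the other was not.

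Of the cells with at least 100 Col1a2 reads, 19 of 79 in SAG had no read of Col1a1 (24.1%, 15.1 to 34.98), 4 of 27 on plate 1 and 15 of 52 on plate 2. This held for 2 of 84 such cells in PF, 0 of 74 in COR and 2 of 69 in GP. In the 19 SAG cells, Col1a2 had a median of 615 reads and a highest value of 3148. The reverse, at least 100 Col1a1 reads with 0 of Col1a2, was seen in 0 cells of any tissue. The 19 cells had a median of 180758 reads other than Rn45s, close to the 184673 of all SAG cells. Their Col1a2 reads were fewer, since SAG cells with at least 100 such reads and a read of Col1a1 had a median of 1719. For GP the matching median was 12577, for PF 13439 and for COR 15830.5. The shares thus compare cells with unequal Col1a2 reads. Whether Col1a1 was missed in cells with few type I reads was not tested.

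The same comparison of Col3a1 with Col1a1 gave wide distributions. The median log2 ratio was -2.63 in PF over 84 cells and -3.11 in SAG over 66, against -1.50 in COR over 74 and -1.31 in GP over 68. By plate it was -2.93 and -2.27 in PF, -0.78 and -1.40 in GP, -3.66 and -1.32 in COR, and -1.33 and -5.24 in SAG. The PF and GP plates did not overlap, while those of SAG and COR lay far apart, and COR plate 1, with 16 cells, was below both PF plates. Corrected for transcript length, the median PF cell held 5.80 times as much Col1a1 as Col3a1 and the median GP cell 2.33 times as much.

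Cells in which Col3a1 exceeded Col1a1 were 10 of 84 in PF, 4 of 74 in COR and 11 of 68 in GP, against 13 of 66 in SAG, 9 of 27 on plate 1 and 4 of 39 on plate 2. The single cells ranged from -17.7 to 9.18 in PF, and the interquartile range was 3.60 there, 5.04 in SAG, 1.78 in COR and 1.27 in GP. Col3a1 as a share of the reads of Col1a1, Col1a2 and Col3a1 had a median of 7.66% in PF, 15.3% in COR and 18.5% in GP, against 2.37% in SAG, with 9.08% and 0.0952% on the SAG plates. At least 100 reads of Col1a1 with no read of Col3a1 were found in 6 of 82 PF cells, 2 of 73 COR cells, 3 of 65 GP cells and 13 of 56 SAG cells, and the 13 were all among the 36 such cells of SAG plate 2.

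**Figure D3:**
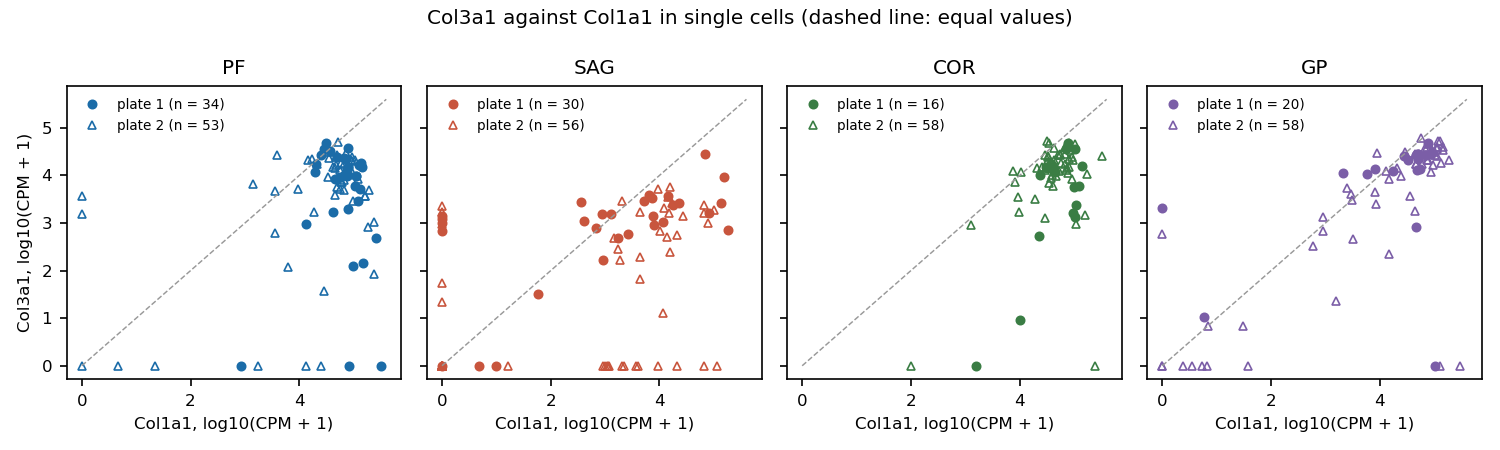
Col3a1 against Col1a1 in single cells of each tissue. Both axes are log10(CPM + 1) without Rn45s, filled circles are cells of plate 1 and open triangles cells of plate 2, and the dashed line marks equal values. Most cells of PF, COR and GP form a group below the line, and SAG cells are spread along both axes, with cells at 0 for either gene.

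Within type V, Col5a2 exceeded Col5a1 in 92.4% of 79 PF cells, 86.5% of 74 COR cells and 94.3% of 70 GP cells with at least 10 reads of both together, at median log2 ratios of 2.60, 1.54 and 2.05. In SAG it did so in 57.1% of 56 cells, at a median of 0.52, with 0.81 on plate 1 and -2.66 on plate 2. Of the cells with at least 100 Col5a1 reads, 12 of 29 in SAG had no read of Col5a2, 11 of them among the 18 such cells of plate 2, against 1 of 38 in PF and 1 of 54 in COR.

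**Figure D4:**
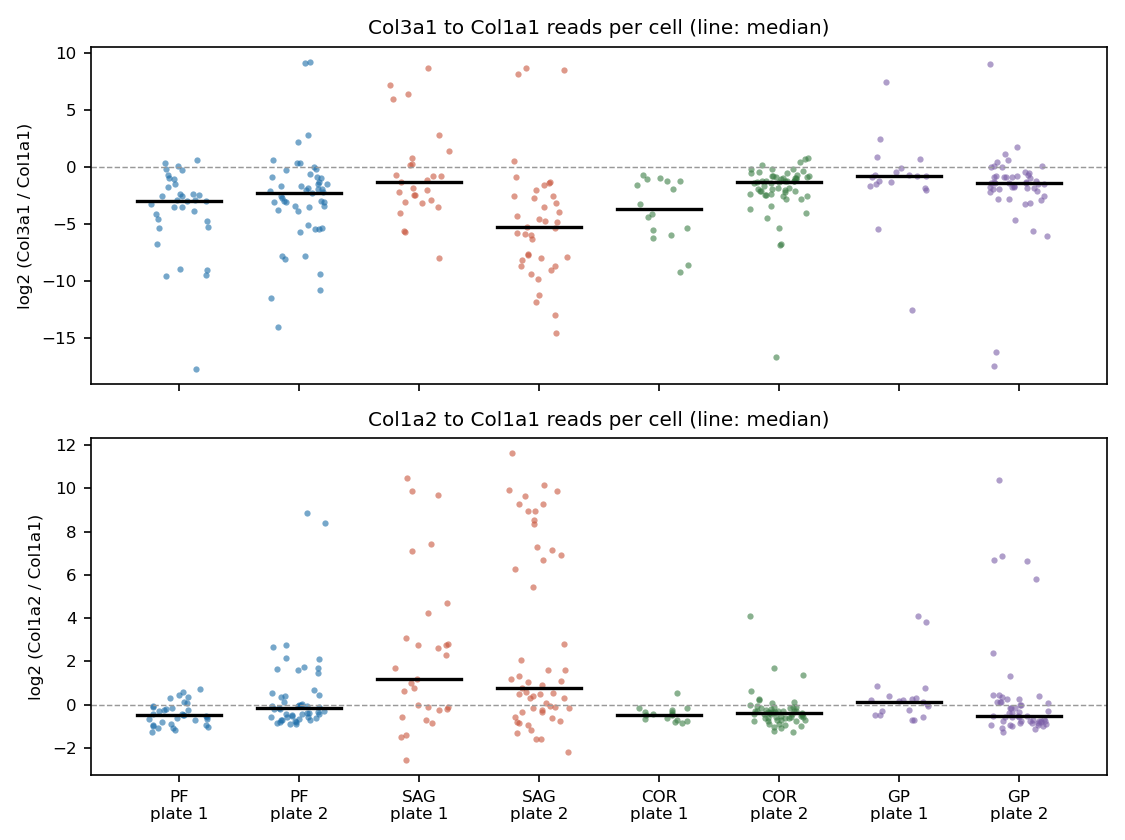
Ratios of chains in single cells by plate. The y axes are log2((reads + 1)/(reads + 1)) of Col3a1 to Col1a1 (top) and Col1a2 to Col1a1 (bottom), points are cells with at least 10 reads of both genes, colours are tissues, black lines are plate medians and the dashed line marks equal reads. The lower panel shows the SAG cells far above 0, in which Col1a2 was read without Col1a1.

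Across the cells of a plate, Col1a1 and Col1a2 rose and fell together. Their Spearman correlation of CPM was 0.74 on SAG plate 1, 0.76 on SAG plate 2 and 0.85 to 0.95 on the other 6 plates, with 16 to 58 cells each. Cells of a plate share library preparation, so these values are descriptions without a p. Col1a1 and Col3a1 were less alike, at -0.34 and 0.25 on the PF plates, 0.56 and 0.50 on the SAG plates, 0.38 and 0.26 on the COR plates and 0.52 and 0.71 on the GP plates. Over plates, the median correlation of Col1a1 was 0.52 with Col5a1 and 0.55 with Col5a2, that of Col5a1 with Col5a2 was 0.44, and Col5a3, on the 6 plates where it was read, had medians of -0.16 to 0.19 with the other members. The number of genes with a read had median correlations of 0.03 to 0.17 with the 6 genes. The number of reads other than Rn45s had medians of 0.03 to 0.26, highest for Col1a1. Single plates went further. On PF plate 2, Col1a1 was at 0.51 with the genes and 0.50 with the reads, and on GP plate 1 Col3a1 was at 0.68 with the reads.

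**Figure D5:**
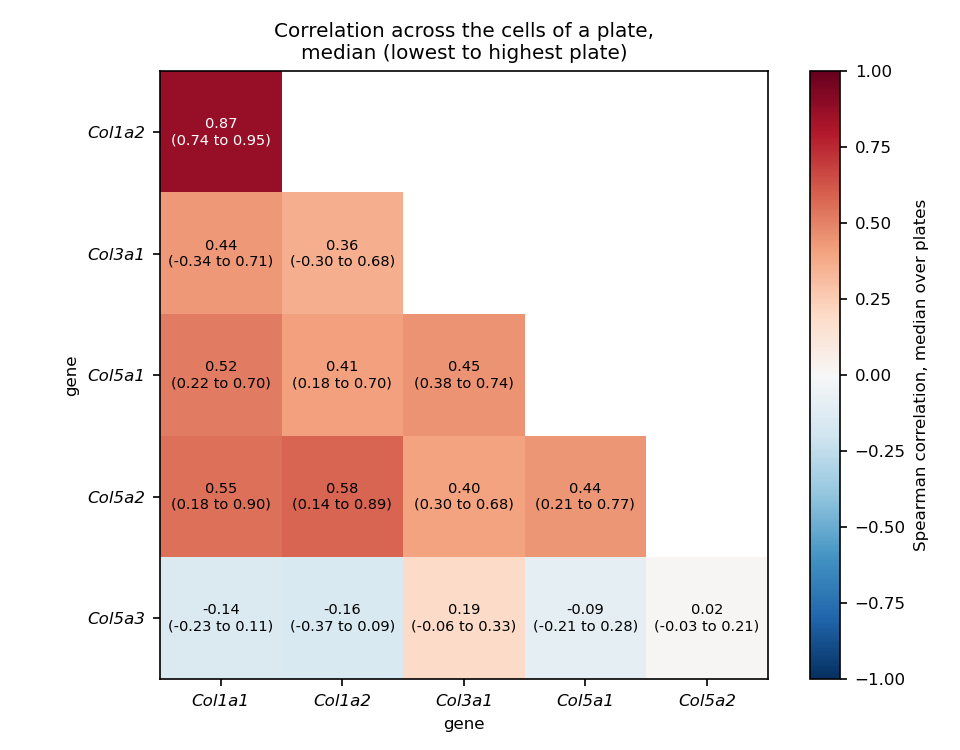
Correlations between members across the cells of a plate. Each square gives the median Spearman correlation of CPM over the plates (8, or 6 for Col5a3), with the lowest and highest plate in brackets, and the colour scale runs from -1 to 1. Col1a1 with Col1a2 has the highest median, 0.87, and the row of Col5a3 lies near 0.

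The genes most like Col1a1 across cells were Sparc (median correlation over 8 plates 0.74), Rcn3 (0.58), Cercam (0.54), Pdgfrl (0.54) and Pcolce (0.53), of 983 genes read in at least 50% of cells, whose own median was 0.02. Sparc encodes a collagen-binding matrix protein and Pcolce an enhancer of procollagen processing, and Rcn3 encodes a calcium-binding protein of the endoplasmic reticulum. Those most like Col3a1 were Thbs2 (0.71), Aspn (0.67), Col12a1 (0.66), Postn (0.63) and Angptl2 (0.63). Thbs2, Aspn, Col12a1 and Postn encode proteins that lie on or between collagen fibrils, and none of these 5 was among the 5 of Col1a1. Those most like Col5a1 were Sparc (0.48), Ppic (0.41), Mxra8 (0.41), Aspn (0.40) and Rcn3 (0.39).

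The ratio of Col3a1 to Col1a1 per cell rose most with Nrep (0.49), Fth1 (0.44) and Nid1 (0.39), followed by Gm1821, Eef1a1, Cfl1, Ywhaq and Rsu1 (0.32 to 0.36). It fell most with Sparc (-0.48), Creb3l1 (-0.35), Lox (-0.30) and Timp1 (-0.29), followed by Slc39a13, Serpinf1, Vkorc1 and Pdgfrl (-0.21 to -0.22). Creb3l1 is known as a transcription factor of type I collagen genes in osteoblasts, and Lox encodes an enzyme that crosslinks collagen. The ratio holds Col1a1 itself, so its low side and the genes most like Col1a1 are not independent.

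Markers of cell types were set beside these values. The ratio of Col3a1 to Col1a1 was negatively correlated with the summed CPM of 10 osteoblast markers on 8 of 8 plates (median -0.42, from -0.71 to -0.07). With 8 fibroblast markers the ratio had a median of 0.18 (from -0.24 to 0.68) and was above 0 on 5 of 8 plates. With 6 tenocyte markers its median was 0.23 (from -0.35 to 0.48), also above 0 on 5 of 8. Col3a1 alone was positively correlated with the fibroblast markers on 7 of 8 (median 0.59, from -0.15 to 0.86) and with the tenocyte markers on 8 of 8 (median 0.42). Col1a1 had medians of 0.23 with the osteoblast markers (from -0.40 to 0.58) and 0.09 with the fibroblast markers (from -0.21 to 0.76). The plates disagreed, and on GP plate 2 the 2 values were -0.40 and 0.76. Osteoblast markers summed to 36013 CPM in PF, 56648 in COR and 35154 in GP, against 14080 in SAG, with 75031 and 26548 on the PF plates, 32708 and 1694 on the SAG plates and 1608 and 42197 on the GP plates. GP plate 1 was thus as low in these markers as SAG plate 2, with Col1a1 at 49155 CPM against 13152. Of the 10 osteoblast markers, 5 were called higher and 1, Runx2, lower in PF than in SAG, beside 16.9% and 13.2% of all genes. Fibroblast markers summed to 7879, 10941, 9419 and 2322 CPM in the same order, with 5091 and 480 on the SAG plates. Dpt, Pi16 and Clec3b were at 0 in SAG, Dpt and Clec3b in PF, Pi16 and Clec3b in COR, and Pi16 in GP. Of the 5 fibroblast markers tested, 3 were called higher in PF than in SAG, beside 16.9% of all genes. The part of the marked cell types in the levels of the collagen genes was not tested. In a summed tissue, fewer cells with a gene and fewer reads per cell cannot be told apart from the sum alone.

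Chondrocyte markers were highest in SAG, where the type I genes were lowest. The 10 that were found summed to 16903 CPM in SAG, 5515 in GP, 305 in PF and 249 in COR, with 21420 and 13899 on the SAG plates. All 10 were called lower in PF than in SAG, beside 13.2% of all genes. Across the cells of a plate, their sum had median correlations of -0.05 with Col1a1 (from -0.59 to 0.45) and 0.10 with Col3a1 (from -0.25 to 0.52). On the SAG plates it was at -0.50 and -0.59 with Col1a1, -0.48 and -0.55 with Col1a2, and -0.17 and -0.25 with Col3a1. The part of chondrocyte-like cells in the low type I level of SAG was not tested.

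Among the other fibril-forming collagens, 3 of 5 were called higher in SAG than in each of the other tissues. The share of all genes called so was 13.2% against PF, 13.5% against COR and 13.3% against GP. Col2a1, the chain of type II collagen of cartilage, was at 8092 CPM in SAG and 2349 in GP, against 47.5 in PF and 2.06 in COR, and Col11a2 and Col27a1 were called with it. Between COR and GP, Col2a1 and Col11a1 were called lower in COR, at -9.58 and -1.44, beside 7.09% of all genes and 0 of the 6 genes.

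Genes that fold and modify collagen chains were divided in SAG. Of 18 tested, 7 were called higher and 1 lower in PF than in SAG, beside 16.9% and 13.2% of all genes, with a median ratio of 0.60. In SAG, 6 were called lower and 0 higher than in COR, beside 18.9% and 13.5% of all genes. Against GP, 6 were called lower and 1 higher in SAG, beside 18.3% and 13.3%. Fkbp14, a prolyl isomerase for collagen, was at 281 CPM in PF, 272 in COR and 211 in GP, against 45.96 in SAG. Sec23a, of the coat that carries procollagen out of the endoplasmic reticulum, was at 327, 313, 260 and 84.5, and Leprel4, a partner of lysyl hydroxylation, at 275, 223, 228 and 67.8. Plod1, a lysyl hydroxylase, went the other way, at 198 CPM in PF and 863 in SAG. The sum of the list was also higher in SAG, at 14085 CPM (5753 and 19624 on its plates) against 6540 to 6927 in the other tissues, with P4hb, a subunit of prolyl hydroxylase, at 8532 CPM in SAG and 1737 in PF, Crtap at 1787 and 588 and Plod3 at 471 and 88.9, none of which was called between these tissues, since their plates differed in sign. Among PF, COR and GP, 1 gene of the list was called, Plod2, lower in PF than in GP at -1.08.

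Genes of propeptide removal and crosslinking were divided. Of 12 tested between PF and SAG, 4 were called higher in PF and 3 lower, beside 16.9% and 13.2% of all genes. Those higher were Adamts2, the main N-propeptidase of type I procollagen, at 511 CPM in PF and 43.2 in SAG, Adamts14, at 16.7 and 2.32, Pcolce, at 2589 and 661, and Lox, at 1034 and 256. Adamts3, which acts on type II procollagen, was at 33.4 CPM in PF and 241 in SAG and was called lower, as were Loxl2 and Loxl3. The same 4 genes were called lower in SAG than in COR and in GP, beside 18.9% and 18.3% of all genes.

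Of the fibril partners, 2 of 16 tested were called higher and 3 lower in PF than in SAG, close to the 16.9% and 13.2% of all genes, so that the count is no result about the list. Dcn, a small proteoglycan on the fibril surface, stood at 3488 CPM in PF, 2476 in COR and 4637 in GP, against 384 in SAG, and Fn1, the gene of fibronectin, at 1522, 1908, 2815 and 6752. Between PF and COR, Aspn, Postn, Omd and Col6a3 were called lower in PF and Fmod higher, beside 6.36% and 5.43% of all genes. Between PF and GP 5 of 17 were called lower, beside 8.73% of all genes. Aspn was at 580 CPM in PF, 2201 in COR and 2907 in GP, against 193 in SAG, and Postn at 952, 6114, 6144 and 3169, so that both were lower in PF than in COR and GP, as Col3a1 was.

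Of 9 transcription factors, 2 of 8 tested were called higher in PF than in SAG and 1 lower, beside 16.9% and 13.2% of all genes, so that the count is no result about the list. Creb3l1 was at 355 CPM in PF, 214 in COR and 224 in GP, against 87.3 in SAG and was called lower in SAG in each comparison. Sp7, a factor of osteoblasts, was at 231, 281, 58.2 and 69.2 CPM, and Runx2, which acts before it, at 55.6, 88.96, 50.1 and 264, called higher in SAG than in PF and GP. Scx, a tendon factor, was at 59.5 CPM in GP against 8.85 in PF and was called lower in each suture than in GP.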

How the data were processed

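Full-length single-cell RNA-seq counts were used as deposited by the authors, as raw read counts per gene and cell in 8 tables of 24015 genes, 1 for each plate. The submitters' processing notes name STAR 2.5.3a, HTSeq, Seurat 2.3.0, R 3.4.4 and mm9. Annotation and strand setting of the counting are not given in the sources used here. Group and plate were taken from titles and source names. For 1 cell the description named a plate of another tissue.

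Cells with at least 500 genes and 10000 reads were kept (325 of 360). No doublet caller was run, since cells were sorted singly into wells. Reads were summed per tissue and plate and divided by reads other than Rn45s. Log2 ratios used a pseudocount of 1 CPM. Poisson and Clopper-Pearson intervals are at 95%, a count of 0 allows 3 counts, and all cover counting error only. Lengths are of the longest GENCODE vM1 transcript. The ratios and calls were tested on simulated counts. Python 3.11.15, numpy 2.4.6, pandas 2.3.3, scipy 1.17.1, and edgeR 4.0.16 in R 4.3.3 (for TMM factors only) were used.

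The genes, lists and alternatives were chosen with earlier results of these data known. Beside the members, the 5 genes most correlated with Col1a1, Col3a1 and Col5a1 and the 8 each way for the ratio are named, and called genes of 5 pathway lists, up to 4 a list. That rule did not fix which called genes of a longer list were named, and these, with a few beyond 4, were picked with their values in view. Alternatives changed the total, TMM factors, the cell filter, plates, single cells, pseudocount, depth and fold.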

Additional observations from a re-analysis of the deposited data

Results flagged for a closer look

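The 35 cells that failed the filter were used in no comparison and had a median of 501 reads other than Rn45s. They still held reads of the collagen genes, above the 8.57% of cells that a count of 0 would allow. Col1a2 had a read in 24 of them (68.6%, exact interval 50.7 to 83.1), Col1a1 in 21 (60%, 42.1 to 76.1), Col3a1 in 11 (31.4%), Col5a2 in 9 (25.7%) and Col5a1 in 7 (20%). Col5a3 had a read in 1. Summed over these cells, Col1a1 was at 48042 CPM and Col3a1 at 1142 CPM without Rn45s. No control wells were used here, and whether these reads came from the cells themselves was not tested.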

How the results depend on the processing

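No setting turned the direction of a called value. For the settings that keep or drop whole plates this was fixed in advance, since a call required 4 plate ratios of 1 sign. Counting Rn45s, which took 80.3% of the reads of SAG, could only lower SAG against the other tissues. Counting Rn45s in the total gave log2 ratios of type I of 3.82 (PF to SAG), -3.44 (SAG to COR) and -3.38 (SAG to GP), and of Col3a1 of 4.45, -5.19 and -5.37. With the mean of single-cell CPM, Col3a1 was at -0.54 for PF to GP and -0.023 for COR to GP, and type I at 0.22 for COR to GP. The same mean gave 0.18 for Col1a1 in PF to COR, against 0.38. With plate 1 cells only, Col3a1 was at -0.30 for PF to COR and -0.74 for COR to GP, and type I at 0.43 for COR to GP, 0.99 for PF to GP and -0.82 for SAG to GP. The ratio of Col5a3 from PF to SAG was 0.59 with plate 1 cells only and 8.12 with a pseudocount of 0.1 CPM, against 4.85. With plate 2 cells only, Col3a1 was at -4.55 for SAG to COR. Leaving out 1 plate at a time gave Col3a1 ratios of -0.76 to -0.40 (PF to COR), -1.14 to -0.90 (PF to GP) and -0.60 to -0.23 (COR to GP), and type I ratios of 0.20 to 0.75, 0.26 to 0.73 and -0.075 to 0.24. The ends farthest from the reported values came without plate 2 of COR, GP and COR for Col3a1, and of PF, PF and GP for type I. The median cell ratio of Col3a1 to Col1a1 ran from -3.66 (without COR plate 2) to -1.32 in COR and from -1.40 to -0.78 (without GP plate 2) in GP. At 1.5-fold, 2 members were called lower in PF than in COR, 1 lower in PF than in GP and 1 lower in COR than in GP, and with TMM factors 1 was called lower in PF than in GP. The causes were not tested. At 1.5-fold, 9.46% of all genes were called higher and 11% lower in PF than in COR, 12% and 13.4% in PF than in GP, and 11.2% each way in COR than in GP. With TMM factors 9.73% of all genes were called lower in PF than in GP. Leaving out SAG plate 2 lowered the members called from 5 to 4 for SAG below COR and for SAG below GP (Col1a2 was lost) and moved 4 of 6 shares of cells in SAG. Each tissue is 1 sample of 2 plates with no animal named, so that plates show handling and not animals, and Col5a3 rests on 26 cells. No paired analysis was possible because the result comes from no test.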
